A study of Rattus norvegicus with 56 samples.

Results

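The S100 calcium-binding family was described in the hippocampus and the parietal cortex of 24 male Long-Evans rats. Members were all probes whose accession maps through RefSeq to 1 of 10 rat symbols, namely S100b, S100a1, S100a4, S100a6, S100a8, S100a9, S100a10, S100a11, S100a13 and S100a16. These 10 genes were read by 11 probes, among 45598 probes and 16581 named genes on the array. S100b (NM_013191) had 2 probes and each other member had 1. All 11 probes entered the tests in both regions and none was saturated. S100a8 was well above background in 20 of 24 animals in hippocampus and in 19 of 24 in cortex, and the other 9 members were well above background in all 24 animals of both regions.

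Rats received sham stimulation or intermittent theta burst stimulation (iTBS), in which a coil above the skull delivers magnetic pulses in short repeated bursts. The age was 6 to 7 months in young and 26 to 27 months in aged rats, and tissue was taken at 48 h. According to the labels, a water maze score split the aged rats into unimpaired (AU) and impaired (AI) animals, whereas the study's methods describe the maze for another experiment and give fewer rats for this one than the labels hold. The groups were young sham (Y_Sham, 4 animals), young stimulated (Y_iTBS, 4), AU_Sham (4), AU_iTBS (5), AI_Sham (4) and AI_iTBS (3), and both regions came from each animal. According to the labels, the rats were sedated with isoflurane and dexmedetomidine, which Antisedan reversed, so the controls are sedated rats, and aged rats got less dexmedetomidine and Antisedan by weight than young rats.

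S100 proteins are small proteins that bind calcium through a pair of EF-hand loops and mostly work as dimers. Inside cells they change partner proteins when calcium rises, and several of them bind annexins at membranes. Some are also released and act on the receptors Ager (RAGE) and Tlr4. In brain, S100b is best known as a protein of astrocytes, S100a8 and S100a9 form calprotectin of neutrophils and other myeloid cells, and S100a10 (p11) is the partner of annexin A2. The members other than S100b lie on rat chromosome 2, with other genes between some of them, in the order S100a1, S100a13, S100a16, S100a4, S100a6, S100a8, S100a9, S100a11 and S100a10. The first 7 lie in 1 cluster and 58 coding genes separate S100a9 from S100a11, while S100b lies on chromosome 20.

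The 250 bases before the RefSeq start (assembly GRCr8) are shown for S100a4, S100a6 and S100a9. S100a4 and S100a6 were higher in aged hippocampus with sham and stimulated rats in 1 comparison. The S100a9 level followed that of its neighbour S100a8. Capitals mark a TATA box (TATAAA) in S100a4 and S100a9 and a GC box (GGGCGG) in S100a6. The S100a4 window is chr2:178388279-178388528 on the plus strand, the S100a6 window chr2:178398287-178398536 on the plus strand and the S100a9 window chr2:178490623-178490872 on the minus strand.
S100a4: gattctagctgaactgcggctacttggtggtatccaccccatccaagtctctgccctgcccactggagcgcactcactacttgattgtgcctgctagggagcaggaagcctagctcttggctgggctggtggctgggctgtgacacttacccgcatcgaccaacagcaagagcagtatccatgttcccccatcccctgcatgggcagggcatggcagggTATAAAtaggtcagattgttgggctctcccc
S100a6: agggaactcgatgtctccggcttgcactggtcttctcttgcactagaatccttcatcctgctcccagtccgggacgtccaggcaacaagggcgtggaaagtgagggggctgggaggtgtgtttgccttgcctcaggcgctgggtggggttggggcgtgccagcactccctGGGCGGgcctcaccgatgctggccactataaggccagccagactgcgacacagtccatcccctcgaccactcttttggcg
S100a9: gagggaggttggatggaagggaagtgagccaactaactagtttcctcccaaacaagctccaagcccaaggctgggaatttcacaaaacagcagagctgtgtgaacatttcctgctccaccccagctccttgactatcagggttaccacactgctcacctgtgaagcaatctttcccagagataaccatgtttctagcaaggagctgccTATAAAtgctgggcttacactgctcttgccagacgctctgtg
The TATA box lay 31 to 26 bases before the start of S100a4 and 42 to 37 bases before that of S100a9, and the GC box of S100a6 lay 80 to 75 bases before its start. Both strands were searched. Over 33469 rat windows of that length, TATAAA was found in 12.9% and GGGCGG in 30.5%. The AP-1 letters TGANTCA (6.34% of windows) and the STAT letters TTCNNNGAA (7.67%) were in none of the 7 member windows that RefSeq gave. GGGCGG also occurred in S100a13, and in S100a11 as 2 matches that overlap by 1 base.

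Between 59.3% and 69.7% of probes were well above background on the 56 arrays. They comprise 48 first arrays and 7 technical repeats. One further array had labels that disagreed on its group and was put in no group. The repeat of AI_iTBS 2 cortex did not correlate with its own first array (r = 0.000338 over 500 probes) and was left out. With it averaged in, the number of members called was the same in 26 of the 27 comparisons, and S100a1 joined those higher in hippocampus (adjusted p = 0.0481 by limma, 0.0682 without it). Hippocampus and cortex markers sided with the labels, with 7 of 8 hippocampus markers higher in hippocampus and, of 8 cortex markers, 5 higher in cortex and 1 higher in hippocampus by limma. Values below are log2 signal, scaled so that 0 is the mean of an array, and a difference of 1 is a doubling. Adjusted p-values are from limma over all probes tested, and probes are called when it is under 0.05. Levels are not compared between probes.

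With sham and stimulated rats in 1 comparison, aged hippocampus had more S100a6 and S100a4 transcript than young hippocampus. S100a6 (calcyclin) is a partner of the calcyclin-binding protein and of annexins, and S100a4 (metastasin) binds nonmuscle myosin and is found in fibroblasts, myeloid cells and glia. Here limma called 166 of 32503 probes (0.511%), and 137 of them were higher in aged rats (0.421%). Among the 10 members 2 were called, both higher. In bulk tissue more cells of a type and more RNA per cell cannot be told apart.

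For S100a6 in hippocampus, the young values were 2.59, 2.93, 3.05 and 2.94 in Y_Sham and 2.53, 3.17, 3.05 and 2.77 in Y_iTBS. The unimpaired aged values were 3.31, 3.33, 3.25 and 3.79 in AU_Sham and 3.77, 3.41, 3.47, 3.23 and 4.17 in AU_iTBS. The impaired aged values were 4.24, 3.64, 4.56 and 3.90 in AI_Sham and 4.34, 3.59 and 3.80 in AI_iTBS. All 16 aged animals were above all 8 young animals, the lowest aged value being 3.23 and the highest young value 3.17. How many of all probes separate the ages in this way was not counted. The difference was 0.88 ± 0.14 (SE, 95% confidence interval 0.59 to 1.16), or 1.84-fold, with a limma adjusted p of 0.00305. The call held when any 1 of the 24 animals was left out, with differences of 0.82 to 0.93.

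For S100a4 in hippocampus, the young values were 5.32, 5.48, 5.54 and 4.84 in Y_Sham and 5.27, 5.04, 4.86 and 4.62 in Y_iTBS. The unimpaired aged values were 5.92, 5.18, 5.25 and 5.72 in AU_Sham and 5.95, 5.99, 5.49, 5.61 and 6.16 in AU_iTBS. The impaired aged values were 6.29, 5.20, 5.82 and 5.38 in AI_Sham and 6.75, 6.02 and 6.22 in AI_iTBS. All 16 aged animals were above the young mean and 11 were above every young animal, so the groups overlapped. The difference was 0.72 ± 0.15 (SE), or 1.64-fold, with a limma adjusted p of 0.0292. It stayed between 0.64 and 0.77 without any 1 animal, but the call was lost (adjusted p up to 0.0948) without Y_Sham 1, Y_Sham 4, Y_iTBS 2, Y_iTBS 3, Y_iTBS 4 or AI_iTBS 1. In sham animals alone it was 0.30 ± 0.21 (adjusted p = 0.651), with 5 of 8 aged animals above the Y_Sham mean.

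Scan batch 1 held both regions of 15 animals and the later batches those of the other 9, with every group in both. Within batch 1 the age difference of S100a6 in hippocampus was 0.72 and within the later batches 1.22, and neither was called alone (limma adjusted p = 0.417 and 0.153). The S100a4 difference was 0.70 and 0.85 (adjusted p = 0.347 and 0.274). With slide as a block both genes were called, at 1.10 for S100a6 and 0.80 for S100a4, among 6.60% of all probes.

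**Figure D1:**
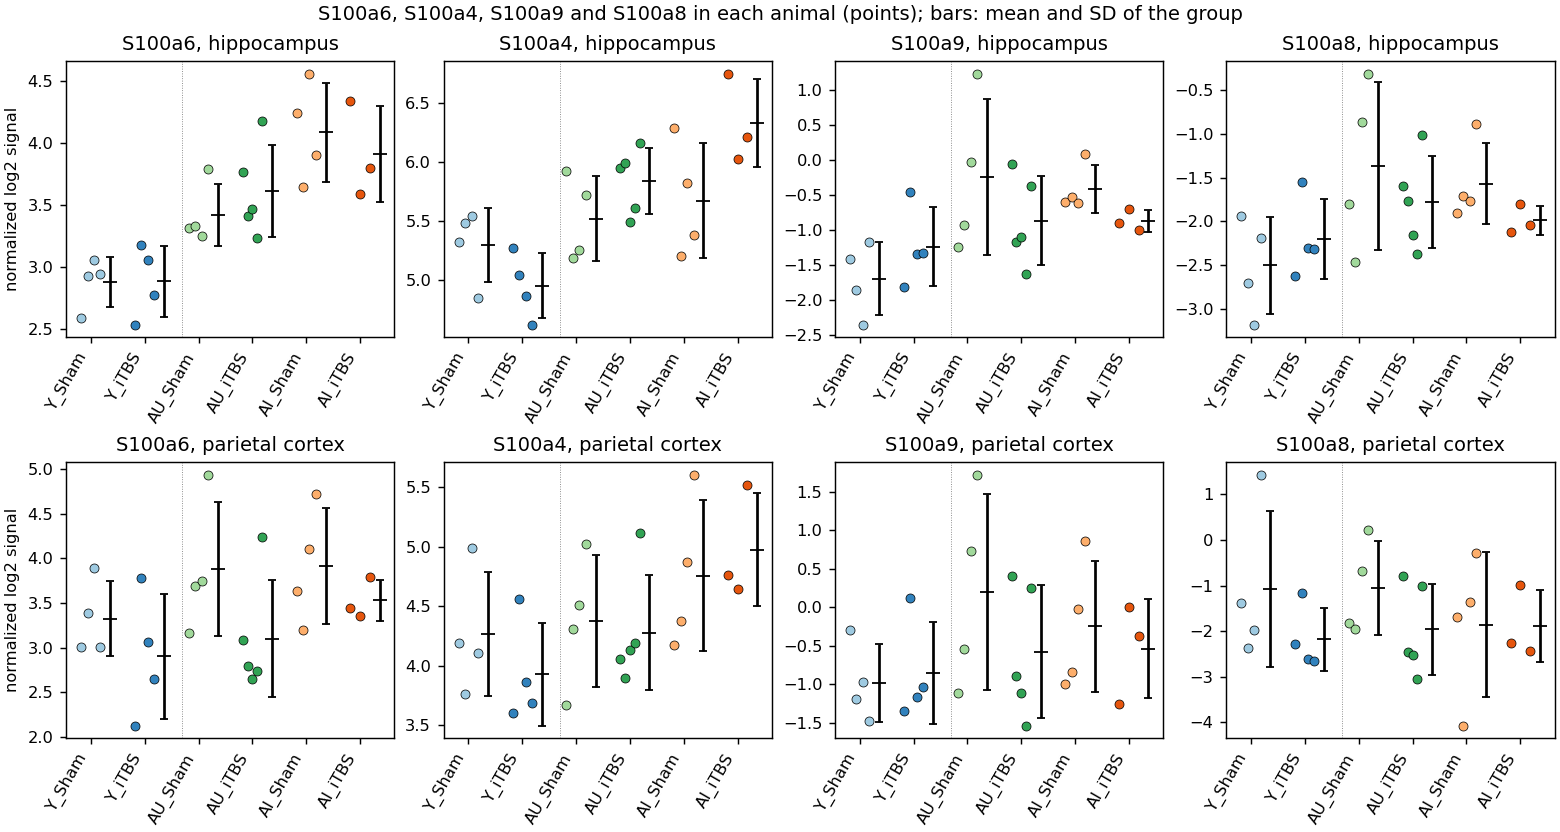
Normalized log2 signal of S100a6, S100a4, S100a9 and S100a8 in each animal by group (points), with the group mean and SD (bars), hippocampus above and parietal cortex below. In hippocampus all aged S100a6 values lie above the highest young value of 3.17, while the S100a9 and S100a8 values overlap between ages. Such separation was not counted over all probes.

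Calprotectin transcripts leaned the same way without passing the test. S100a9 in hippocampus was −1.41, −1.86, −2.36 and −1.18 in Y_Sham and −1.25, −0.94, −0.04 and 1.23 in AU_Sham. In AI_Sham it was −0.61, −0.54, −0.62 and 0.08. The 4 AI_Sham animals were above all Y_Sham animals, whereas AU_Sham overlapped Y_Sham. The share of all probes that separate AI_Sham from Y_Sham was not counted. Over all animals the age difference was 0.87 ± 0.27 (SE, limma adjusted p = 0.193), with 15 of 16 aged animals above the young mean, and that of S100a8 was 0.67 (adjusted p = 0.26). These 2 neighbouring genes followed each other over the 24 hippocampi (r = 0.92), and less in cortex (r = 0.54), where the S100a8 signal of Y_Sham 4 was 1.43 while its S100a9 signal was −1.48. In both regions the highest S100a9 value was that of AU_Sham 4. Genes of red blood cells were read beside calprotectin. The mean summed level of 5 such genes in hippocampus was 9.04 in Y_Sham, 9.48 in AU_Sham and 9.84 in AI_Sham. Of these genes 4 of 5 were higher in aged sham rats (median 0.49, 46.0% of all probes higher), with 0 called. In stimulated rats the level was lower in aged animals, at 9.46 in Y_iTBS, 9.26 in AU_iTBS and 9.19 in AI_iTBS. The S100a9 means were −1.24, −0.87 and −0.88 in these groups, and −1.70, −0.25 and −0.42 in the sham groups. Over all animals the red blood cell level had r = 0.50 with S100a8 and 0.59 with S100a9 in hippocampus and 0.52 and 0.60 in cortex. Its part in the calprotectin values was not tested.

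The other members differed less in hippocampus. All 10 had positive age differences (47.6% of all probes did), with a median of 0.18 against −0.01 over all probes, and S100a13 (0.14) and S100a1 (0.19) were not called. S100a13 takes part in the release of the growth factor FGF1, and S100a1 is a calcium sensor of muscle and neurons. In cortex 7 of 10 members had positive age differences (47.8% of all probes did). There 131 of 32613 probes were called (0.402%) and 0 members were called by limma, with 3 at an unadjusted p under 0.05 (14.3% of probes). These were S100a11, a partner of annexin A1 (0.74 ± 0.28, adjusted p = 0.275), S100a16 (0.25, adjusted p = 0.292) and S100a4 (0.50 ± 0.22, adjusted p = 0.316). The cortical S100a6 difference was 0.49 ± 0.25 (adjusted p = 0.377), and the all-animal age difference was not compared between regions.

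Restricted to sham animals, the age comparison in hippocampus called 1 of 32503 probes (0.00308%) and 0 members by limma, with 3 members at an unadjusted p under 0.05 (8.18% of probes). The S100a6 difference was again 0.88 (± 0.19 SE, adjusted p = 0.242) without overlap, which was not counted over all probes. S100a9 differed by 1.37 ± 0.37 (adjusted p = 0.454). The S100a4 difference was 0.22 in AU and 0.37 in AI against young sham. In AU against young sham (0.00308% called) the S100a6 difference was 0.54, and in AI against young sham (0% called) it was 1.21 ± 0.22, or 2.31-fold (limma adjusted p = 0.111). With slide as a block the last value was 1.5 and was called (adjusted p = 0.0291), among 2.61% of all probes. At an unadjusted p under 0.05, limma had 3 members in each of these comparisons (5.08% and 9.12% of probes) and 1 in AI against AU sham (4.05%). AI_Sham exceeded AU_Sham by 0.67 ± 0.22 for S100a6 (0% of probes called, adjusted p = 1), although 3 of the 4 hippocampi of each group lay on a slide that held none of the other group. In cortex 34 probes (0.104%) were called for aged against young sham, 0.0491% for AU and 0.0767% for AI against young sham and 0% for AI against AU sham, with 0 members in each. At an unadjusted p under 0.05, limma had 1 member in AU against young sham (8.65% of probes) and 0 in aged against young (9.46%), AI against young (8.08%) and AI against AU sham (6.44%). The age effect of S100a8 in sham animals differed between regions by 1.42 ± 0.54 (adjusted p = 0.745, 0.00296% of probes called). It was 0.69 without Y_Sham 4, and S100a8 was well above background on 2 of the 6 Y_Sham hippocampus arrays.

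Cell type lists were read beside these differences. The microglia and macrophage list had 2 of 10 genes called higher in aged hippocampus, the lysosomal protein Cd68 (0.78, limma adjusted p = 0.00049) and the integrin Itgam (0.49, adjusted p = 0.0496), with 8 of 10 positive (47.6% of all probes). Its summed level was 8.68 to 8.86 in young animals, 8.79 to 9.19 in AU and 8.79 to 9.38 in AI. Over 24 hippocampi this level had r = 0.71 with S100a6 and 0.76 with S100a4, and in cortex r was 0.07 and 0.19. These correlations span ages and arrays scaled alike, and the part of microglia in the age differences was not tested. No gene was called with age in hippocampus in the astrocyte (10 tested), oligodendrocyte (10), neuron (8), meningeal (10), endothelial (8), mural (6), choroid plexus (7), ependymal (5) or erythroid (5) list. Of 9 neutrophil genes with a probe, 4 were measured in fewer than 3 animals and 0 of the 5 tested were called, and the summed level correlated weakly with S100a8 (r = 0.22) and S100a9 (r = 0.18).

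Transcripts of S100 partners and receptors did not pass the test with age. Of 11 partners and receptors tested, 0 were called in either region. Annexin A2 (Anxa2) differed by 0.33 ± 0.16 in hippocampus (limma adjusted p = 0.39), annexin A1 (Anxa1) by 0.43 (adjusted p = 0.36), Tlr4 by 0.30 and Ager by −0.06. None of 19 genes of other EF-hand proteins of neurons and none of the 4 other S100 genes tested was called.

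No member passed the limma test for iTBS. In all 8 iTBS contrasts 0 members were called, against 0% of probes in 7 of them and 0.00613% in AI cortex. At an unadjusted p under 0.05, limma had 4.51% of probes in young hippocampus with 1 member (S100a13), and 2.48% in all aged and 1.95% in AI hippocampus with 1 member each (S100a4). It had 0 members in AU hippocampus (2.29% of probes) and 0 in cortex, against 2.70% of probes in young, 2.92% in all aged, 8.38% in AU and 4.09% in AI rats. Differences between iTBS effects also had 0 members called. For the aged minus the young effect 0% of probes were called in both regions, with 2 members (S100a4 and S100a13) at an unadjusted p under 0.05 in hippocampus (4.29% of probes) and 0 in cortex (3.21%). For the AI minus the AU effect 0% were called in hippocampus and 0.0123% in cortex, with 0 members at an unadjusted p under 0.05 (1.71% and 8.74% of probes by limma).

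S100b, the astrocyte protein, had hippocampal group means of 9.61 ± 0.13 (SD) in Y_Sham, 9.68 ± 0.46 in Y_iTBS, 9.73 ± 0.23 in AU_Sham, 9.71 ± 0.23 in AU_iTBS, 9.82 ± 0.15 in AI_Sham and 9.73 ± 0.17 in AI_iTBS. No neighbours in that order were further apart than the larger SD of the pair. Cortical means ran from 9.76 ± 0.27 in AU_iTBS to 10.03 ± 0.28 in AU_Sham. By animal, S100b was 9.50, 9.70, 9.74 and 9.49 in Y_Sham hippocampus and 9.02, 10.1, 9.78 and 9.82 in Y_iTBS hippocampus. The iTBS difference was 0.07 ± 0.18 (SE, 95% confidence interval −0.31 to 0.45, limma adjusted p = 0.97) in young and −0.05 (interval −0.32 to 0.22) in aged hippocampus. In cortex it was 0.05 (interval −0.31 to 0.41) in young and −0.06 (interval −0.32 to 0.21) in aged rats. These intervals leave room for a change of about 0.45 in log2, and the sign depended on the scaling of the arrays and on the probe. The second probe had means of 8.72 in Y_Sham and 8.65 in Y_iTBS cortex. In aged hippocampus it had 8.81 in AU_Sham, 8.80 in AU_iTBS, 8.92 in AI_Sham and 9.03 in AI_iTBS. In young hippocampus and aged cortex its sign was that of the lead probe. Between both probes r was 0.74 in hippocampus and 0.42 in cortex. The paper reports S100b as markedly lower after iTBS in each of its in vivo groups. It used its own selection rule and did not split the aged rats by impairment. Here the limma differences of the lead probe had both signs and none was called.

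S100a4 had an unadjusted limma p under 0.05 in aged hippocampus, where the iTBS difference was 0.49 ± 0.17 (SE, interval 0.13 to 0.85, adjusted p = 0.978) and 7 of 8 stimulated animals were above the aged sham mean. Of the 3 AI_iTBS values given above, 2 were within the range of AI_Sham. In young rats the S100a4 difference was −0.35 ± 0.24, and the aged minus the young effect was 0.84 ± 0.30 (adjusted p = 0.801). S100a13 was 6.86, 6.75, 6.72 and 6.63 in Y_Sham and 6.54, 6.58, 6.54 and 6.58 in Y_iTBS hippocampus, without overlap. The share of all probes without overlap between these groups was not counted. The S100a13 difference of −0.18 ± 0.08 had an adjusted p of 0.931 by limma. S100a10, the annexin A2 partner, was 5.18, 5.43, 4.99 and 4.91 in Y_Sham and 5.14, 4.34, 4.59 and 4.53 in Y_iTBS hippocampus, which overlap through the 1 high Y_iTBS animal (difference −0.48 ± 0.24, adjusted p = 0.931). Ependymal and choroid plexus genes were lower beside them, with 0 called. The summed ependymal level was 6.18 to 6.66 in Y_Sham and 5.99 to 6.06 in Y_iTBS hippocampus, without overlap, and 0 of 5 genes had a positive difference (median −0.60). The choroid plexus level was 7.03 to 9.01 and 4.98 to 7.11, with 0 of 7 positive (median −1.40), against 45.9% of all probes. Over 24 hippocampi the ependymal level had r = 0.42 with S100a13 and 0.50 with S100a10, and the choroid plexus level 0.57 and 0.39. Other lists had larger r, the microglia and macrophage list 0.70 with S100a13 and the neuron list −0.73 with S100a10. The mean neuron level was 10.39 in Y_Sham and 10.52 in Y_iTBS hippocampus, and the microglia level was 8.77 in both. The part of any list in the S100a13 and S100a10 differences was not tested.

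In cortex S100a6 was 3.16, 3.69, 3.74 and 4.94 in AU_Sham and 3.09, 2.79, 2.64, 2.74 and 4.25 in AU_iTBS. The aged difference was −0.58 ± 0.30 (SE, limma adjusted p = 1), with 7 of 8 stimulated animals below the aged sham mean. The signed aged iTBS difference of S100a6 in hippocampus minus that in cortex was 0.59 ± 0.23 (adjusted p = 1, 0% of probes called). The hippocampal means were 3.42 in AU_Sham and 3.61 in AU_iTBS, and 4.09 in AI_Sham and 3.91 in AI_iTBS. S100a11 in young cortex was −0.14, −0.23, 0.34 and −0.33 in Y_Sham and −0.60, −0.35, −0.81 and −1.34 in Y_iTBS, without overlap (difference −0.68 ± 0.46, adjusted p = 1), which was not counted over all probes. Genes of meninges and perivascular fibroblasts moved beside these values. All 10 had negative iTBS differences in cortex, with a median of −0.81 in young and −1.06 in aged rats, and none was called. Over all probes 47.7% were positive in young and 52.4% in aged cortex. Over 24 cortices the summed level of that list had r = 0.84 with S100a6, 0.63 with S100a11 and 0.63 with S100a9. Other lists also correlated, the mural list with r = 0.75 for S100a6 and 0.71 for S100a9 and the ependymal list with 0.75 for S100a6. The part of these lists in the S100 differences was not tested.

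**Figure D2:**
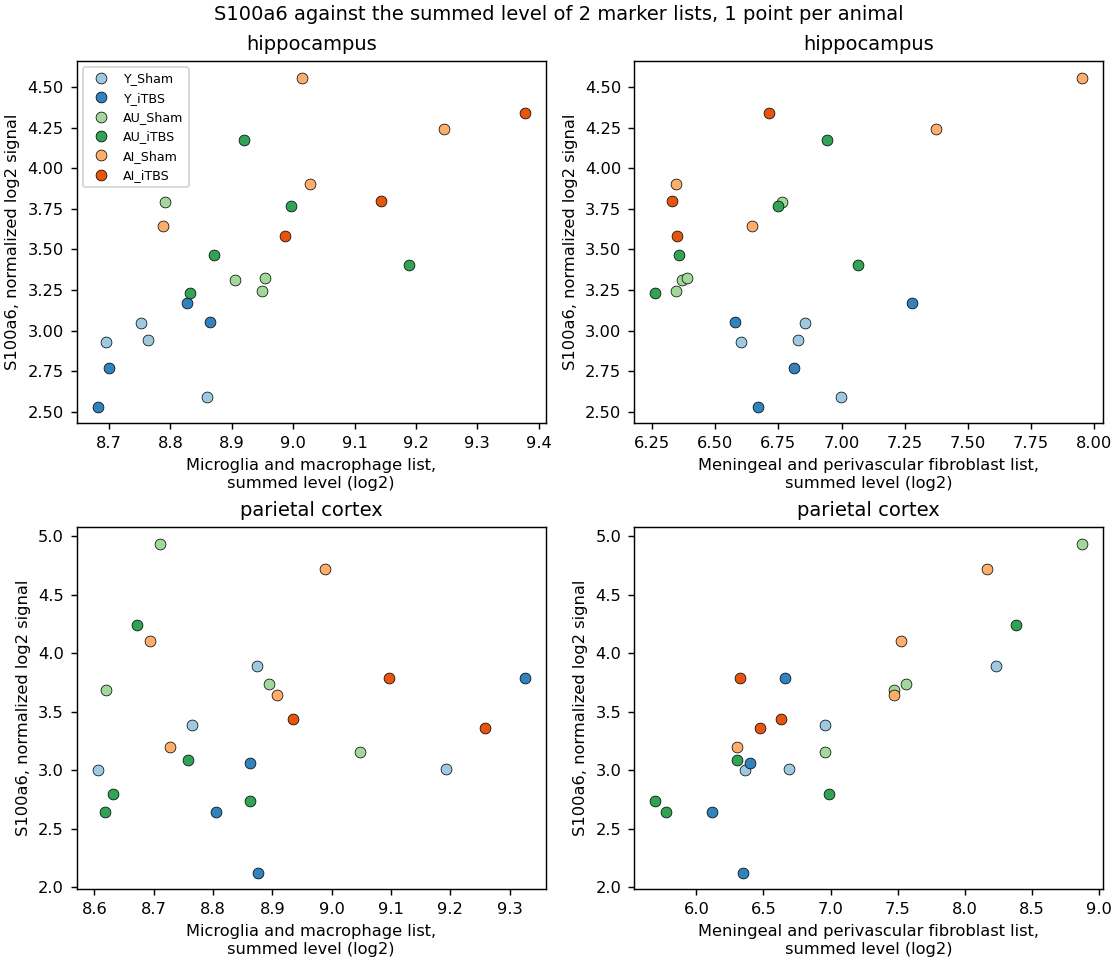
S100a6 signal of each animal against the summed level (log2) of the microglia and macrophage list (left) and the meningeal and perivascular fibroblast list (right), colored by group, hippocampus above and cortex below. Values rise with the microglia list in hippocampus (r = 0.71) and with the meningeal list in cortex (r = 0.84), and less in the other panels (r = 0.30 and 0.07).

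**Figure D3:**
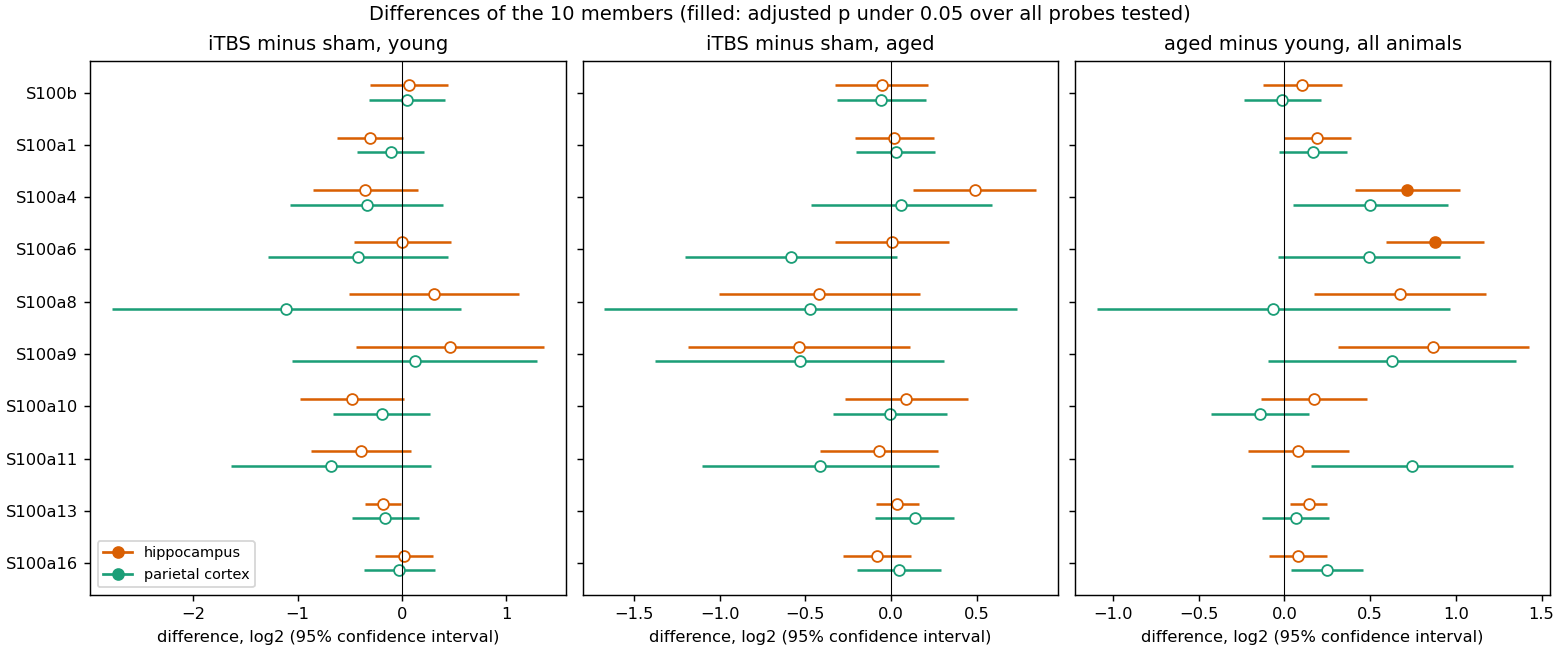
Differences of the 10 members in log2, with 95% confidence intervals, for iTBS minus sham in young and aged rats and for aged minus young over all animals, hippocampus in orange and cortex in green. Filled points were called by limma, which holds for S100a6 (0.88) and S100a4 (0.72) with age in hippocampus.

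Many members differed between the regions, as did many genes. Within the 24 animals limma called 49.4% of 33770 probes, 26.3% higher in hippocampus and 23.2% higher in cortex, and 6 of 10 members were called, 4 higher and 2 lower in hippocampus. That share is near the background. Most slides held arrays of 1 region, or nearly so, so region and slide could hardly be told apart, and with slide as a block 0 members and 0.785% of probes were called. Batch 1 held both regions of its animals. In the later animals all 9 cortex arrays were in scan batch 2 and 8 of 9 hippocampus arrays in batch 3, so region and scan batch cannot be told apart there.

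S100a4 was higher in hippocampus in 23 of 24 animals, by 1.17 ± 0.13 (SE), or 2.25-fold, with a limma adjusted p of 1.41e-07. Within single animals the difference ran from −0.23 in AI_Sham 4 to 2.25 in AU_Sham 1. It was 0.83 within scan batch 1 and 1.87 across the later batches. S100a13 was higher in hippocampus in all 24 animals, by 0.08 to 0.71, with a mean of 0.47 ± 0.04 and values of 0.46 within batch 1 and 0.51 across the later batches.

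S100a16, an S100 protein found in many tissues, was higher in hippocampus in 21 of 24 animals, by 0.33 (limma adjusted p = 0.000235). S100a11 was higher by 0.41 in 17 of 24 (adjusted p = 0.0156). Lower in hippocampus were S100a10, by −0.30 in 20 of 24 animals (adjusted p = 0.00302), and S100a9, by −0.39 in 19 of 24 (adjusted p = 0.00186). Within batch 1 the S100a16 difference was 0.41, that of S100a10 −0.45 and that of S100a9 −0.47, and across the later batches they were 0.15, −0.07 and −0.17. The S100b lead probe was not called (−0.17, adjusted p = 0.0804), and its second probe gave 0.03. S100a6 differed by 0.02 over all animals, by −0.16 within batch 1 and by 0.39 across the later batches (adjusted p = 0.0227 there).

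In sham animals alone (12), 35.9% of probes (19.2% higher and 16.7% lower in hippocampus) and 5 of 10 members were called by limma. S100a13 (0.51), S100a4 (1.03) and S100a16 (0.36) were higher in hippocampus, and S100a9 (−0.45) and S100a10 (−0.29) were higher in cortex. The S100a10 call (adjusted p = 0.0462) held in 6 of 24 fits that each left out 1 animal. Glial lists differed too, with 9 of 10 oligodendrocyte genes and 6 of 10 astrocyte genes called higher in hippocampus of all animals, among them Gfap (1.42), and 1 gene of each list called lower. Of 8 endothelial genes, 5 were called lower in hippocampus. Of the S100 partners Tlr4 was higher in hippocampus (0.61, adjusted p = 1.8e-05) and annexin A5 (Anxa5) lower (−0.25, adjusted p = 0.00025). Of the genes of other EF-hand proteins 4 were called higher, among them hippocalcin (Hpca, 1.68), and 8 lower, among them Vsnl1 (−0.77) and parvalbumin (Pvalb, −0.83). The part of cell makeup in these differences was not tested.

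**Figure D4:**
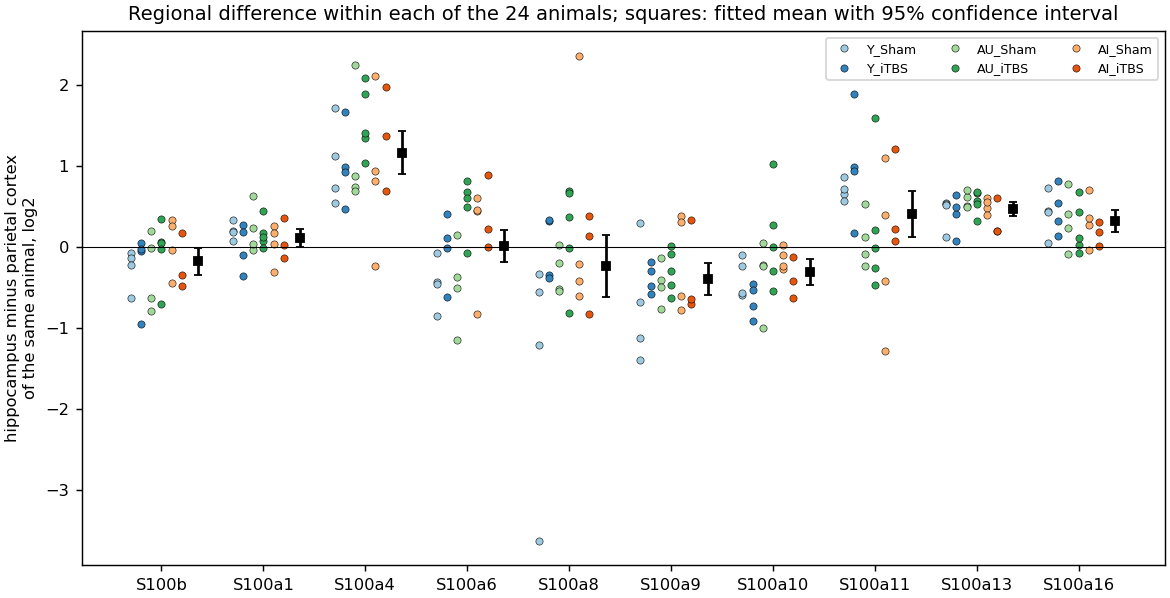
Hippocampus minus parietal cortex of the same animal (log2) for each member, 1 point per animal colored by group, with the fitted mean and 95% confidence interval as squares. S100a4 lies above 0 in 23 animals and S100a13 in all 24, whereas S100a8 spreads widely.

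Over the 24 animals of a region, the levels of some neighbouring members were correlated, as described here without a test since all values share the array scaling. S100a1 and S100a13 had r = 0.75 in hippocampus and 0.74 in cortex. S100a4 and S100a6 had r = 0.71 and 0.81. Other neighbours did so less, S100a13 and S100a16 with r = 0.27 and 0.69 and S100a10 and S100a11 with r = 0.49 and 0.01. More distant pairs could correlate as well, S100a4 with S100a13 at 0.78 in hippocampus, and S100a10 had r = −0.62 with S100a16 there, which was −0.05 within scan batches. Between the 2 regions of an animal, r was 0.85 for S100a9, 0.61 for S100a13, 0.58 for S100a6 and −0.23 for S100b.

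**Figure D5:**
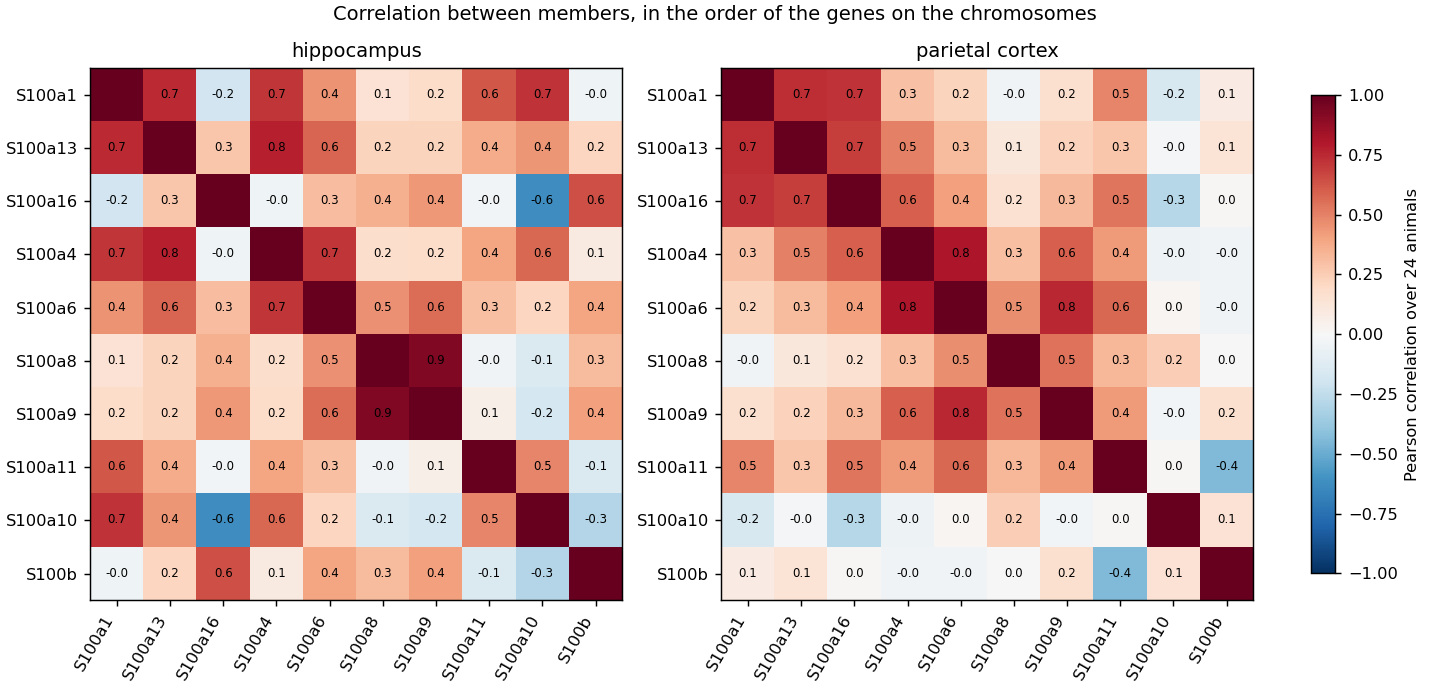
Pearson correlation between the 10 members over 24 animals in hippocampus and in parietal cortex (color scale from −1 to 1), ordered by position on chromosome 2 with S100b last. S100a8 with S100a9 in hippocampus (0.92) and S100a4 with S100a6 in cortex (0.81) are among the highest.

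By the lower of its 2 regional correlations, the gene most like S100a4 was Serping1, the complement C1 inhibitor (r = 0.87 in hippocampus and 0.88 in cortex), and Serping1 was also most like S100a6 (0.85 and 0.91). For S100a9 it was Upp1, followed by Lrg1 and the cytokine Il1b. S100a13 and S100a1 were each other's nearest gene. For S100b the nearest were Fth1 (ferritin heavy chain), Rps29 (a ribosomal protein) and Actg1 (actin), at r = 0.92, 0.91 and 0.91 in hippocampus. The S100b probe lies at the 99.6th percentile of brightness and these 3 lie near it. After quantile normalization their hippocampal r was 0.05, 0.03 and 0.28 and their cortical r 0.73, 0.71 and 0.58. The r of S100b with the summed astrocyte list went from 0.91 to −0.19 in hippocampus and from 0.76 to −0.26 in cortex. The r of S100a4 with the microglia list was 0.79 after quantile normalization and that of S100a6 was 0.65.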

How the data were processed

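Total RNA from hippocampus and parietal cortex was hybridized by the authors to 1-color Agilent rat arrays. Each deposited scanner file gives spot intensity for 62976 features, background-subtracted but not normalized between arrays. The deposited table of standard scores by the authors lay within 0.005 of the z-score of these signals and was used as an alternative. The genome build used for the array design is not given in the sources used here.

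The log2 signal was turned into a z-score over the non-control probes of each array, following the study, and brought back to log2 units with the average SD of an array (4.08). Spots that the software marked as outliers (267 to 1448 per array) were left out, spots of a probe were averaged, and repeats of an animal and region were averaged. Probes well above background in at least 3 of 24 animals were tested (32503 in hippocampus, 32613 in cortex, 33770 between regions). Models with 6 group means were fitted with limma 3.58.1 (R 4.3.3), using two-sided moderated tests and Benjamini-Hochberg adjustment. Regions were compared on within-animal differences. For S100b the brighter probe stands for the gene. The fits were tested on simulated data.

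All members were named. Of the related and cell type lists, counts are given and only genes of small adjusted p named, besides Ager, Anxa1, Anxa2 and Tlr4. Likeness was the lower of the regional correlations. Members and lists were chosen with earlier results of these data known. Alternatives covered scaling, background correction (normexp on the median signal, since the files used here hold no mean signal), filters, repeats, slide and scan blocks, the study's selection rule and leaving out each animal. Normalization by quantiles for correlations and fits within scan batches were added after seeing the data. The number of arrays limits the precision.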

Additional observations from a re-analysis of the deposited data

Results flagged for a closer look

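In 8 of 100 groups of 4 or 5 animals tested, 1 animal stood apart from the others of its group by Dixon's test, which chance does in about 1 in 20 groups. In hippocampus, S100a6 of AU_Sham 4 was 3.79 against 3.25 to 3.33 in the others, S100a9 of AI_Sham 4 was 0.0832 against −0.62 to −0.54, and S100a16 of Y_Sham 3 was 7.54 against 7.38 to 7.39. In cortex, AU_iTBS 5 was high for S100a4 (5.12 against 3.89 to 4.19) and for S100a6 (4.25 against 2.64 to 3.09). S100a11 of AU_iTBS 4 in cortex was low at −1.57, where the others ran from 0.55 to 0.69. S100a13 of Y_Sham 1 in cortex was 6.73 against 6.11 to 6.20, and S100a16 of Y_iTBS 2 in cortex was 7.27 against 6.86 to 6.91.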

How the results depend on the processing

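Of 270 member differences over 27 comparisons, 13 were called, and none of these changed sign under any alternative run. Of the 257 not called, 144 changed sign in at least 1 alternative and 9 were called by limma in at least 1. The study's selection rule, as applied here to 1 value per animal, gave 1 member in place of 0 in 5 hippocampal comparisons. This member was S100a4 for iTBS in AI (0.0575% of probes). It was S100a6 for aged (0.186%), AU (0.113%) and AI (0.214%) against young sham and for AI against AU sham (0.111%). The rule so applied called the S100b lead probe in no comparison, whereas the paper lists S100b as lower after iTBS in vivo. Why these differ was not tested. With slide as a block, 1 member was called in AI against young sham in hippocampus (2.61% of probes) and 0 between regions in all animals (0.785%) and in sham animals (0.797%). For age over all animals in hippocampus 0 members were called within scan batch 1 (0.0400% of probes) and 0 within the later batches (0%), where fewer animals were fitted, and 1 to 2 without any 1 animal. Between regions of sham animals, 3 members were called with no replicate block (35.3% of probes), which ignores the pairing by animal, and 1 across the later batches (14.3%), where region and scan batch cannot be told apart and all animals gave 3 (30.4%). The S100b difference for iTBS was near 0 and turned sign. In young hippocampus it was −0.0193 with 75th percentile scaling, −0.0347 with quantile normalization, −0.0475 with normexp, −0.0283 with slide as a block and −0.58 within the later batches, and −0.0717 to 0.29 without any 1 animal. In aged hippocampus it was 0.0200 with quantile normalization, 0.0268 with normexp and 0.14 with slide as a block. In young cortex it was −0.0268, −0.0233 and −0.0452 with these 3 scalings and −0.00843 with the mean of both probes, and −0.0267 to 0.14 without any 1 animal. In aged cortex it was 0.0084, 0.0212 and 0.0160 with these scalings and 0.0516 within batch 1, and −0.13 to 0.00592 without any 1 animal. The cause of these changes was not tested. The deviations of same-numbered animals of different groups had median correlations of 0.06 (hippocampus) and 0.08 (cortex), against −0.02 and −0.05 for other numbers. These values do not settle whether replicate numbers pair animals across groups, and the main fit did not use the numbers. With the number as a replicate block the age differences in hippocampus were 0.84 for S100a6 and 0.68 for S100a4, both called, and no member call changed. Faint S100a8 signals are near background, and groups of 3 to 5 animals leave wide intervals.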

Other observations

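The array whose title and description disagree on its group gave normalized log2 signals of 9.74 for S100b, 5.17 for S100a1, 5.55 for S100a4, 3.15 for S100a6, −1.96 for S100a8, −1.77 for S100a9, 4.56 for S100a10, −0.08 for S100a11, 6.66 for S100a13 and 7.44 for S100a16. The 6 repeat arrays used, of 4 animal samples, differed from their first array in S100b by a median of 0.17 and at most 0.66, and in S100a6 by a median of 0.02 and at most 0.12.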
